A study of Mus musculus with 48 samples.

Results

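The spleen B cell receptor (BCR) heavy-chain repertoires of 10 NOD-FMT mice were compared with those of 9 PBS-T mice, for the IGHV and IGHJ genes they used, the third complementarity-determining region of the heavy chain (HCDR3), clonal evenness, isotypes and mutation. These 19 libraries were taken by the tissue and the group in their labels, from 48 spleen and lacrimal gland libraries in all. Recipients were C57BL/6 (B6) mice, which drank water with ampicillin, vancomycin and metronidazole and were then gavaged daily for 3 weeks from the age of 5 weeks. NOD-FMT mice received a fecal supernatant pooled from NOD.B10.H2b donors with autoimmune dry eye disease, and PBS-T mice received phosphate-buffered saline. A further 5 B6 spleens (NC) came from untreated mice and serve as a reference range. No group received feces of healthy donors, so the transfer of feces as such and the transfer of these donors' feces cannot be told apart. Cages are not given, so cage and group cannot be told apart either.

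A B cell builds its heavy chain once, by joining an IGHV, an IGHD and an IGHJ segment, and the HCDR3 spans the joints. Naive B cells carry IgM and IgD. After activation a cell may switch to IgG, IgA or IgE and may gain point mutations across the joined segments, the HCDR3 included. The IGHV and IGHJ segments it joined stay the same. A change of IGHV usage in IgM or IgD therefore describes mostly the naive pool, and a change in IgG or IgA describes cells that have responded. In this strain IgG comprises IGHG1, IGHG2B, IGHG2C and IGHG3, and IgA (IGHA) is the main antibody of the gut mucosa.

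A count was 1 consensus sequence of a molecular identifier, and a clonotype was all sequences of a library with the same IGHV and IGHJ genes and the same HCDR3 in amino acids. Descendants of 1 cell whose HCDR3 residues differ by mutation therefore count as separate clonotypes. The deposited totals ranged from 168907 to 2302185 counts in NOD-FMT and from 215159 to 591813 in PBS-T spleens. Identical nucleotide sequences found in more than 2 of the 24 spleens were removed, and each library was then thinned to 71859 counts, the lowest total left. The removal took 4.94% to 12.0% of the counts of the other 23 spleens and 66.6% of those of PBS-T mouse 6, which set that lowest total. Most of the latter were 1 unmutated IGHV2-9-1/IGHJ2 IgM sequence with 138414 counts that 8 spleens held, and an IGHV2-9-1/IGHJ2 sequence of 23588 counts, held by 2 spleens, remained. Whether these were this mouse's own B cells or carry-over between libraries was not tested. The libraries come from bulk RNA, so more cells with a receptor and more transcripts per cell cannot be told apart in counts. A clonotype that is seen is counted once, but whether it is seen at the thinned depth still depends on its RNA. They hold heavy-chain transcripts only, so no cell type marker could be checked.

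Across all isotypes together, the use of IGHV genes differed little between the groups, and 2 genes, IGHV1-59 and IGHV14-3, made up a larger share of the clonotypes in NOD-FMT spleens. Of 93 IGHV genes with a mean of at least 10 clonotypes per mouse, these 2 (2.15%) passed an adjusted p of 0.05 in edgeR's quasi-likelihood test with Benjamini-Hochberg adjustment, both higher in NOD-FMT. An unadjusted p under 0.05 was reached by 5 genes (5.38%). The median size of the log2 fold change over the 93 genes was 0.07. IGHV1-59 belongs to the IGHV1 family, the largest of the mouse, and IGHV14-3 to the small IGHV14 family. Both lie on the minus strand of chromosome 12, IGHV14-3 at chr12:114059845-114060321 and IGHV1-59 at chr12:115335082-115335514 (GRCm38, mm10, with the gene models of GENCODE M21).

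IGHV1-59 made up 1.03% of the clonotypes in the lowest NOD-FMT spleen, 1.18% in the median and 1.93% in the highest. In PBS-T spleens the lowest, median and highest shares were 0.824%, 0.90% and 1.08%. The ranges overlapped at their ends, and all 10 NOD-FMT mice lay above the PBS-T median. The means were 1.27% ± 0.281 (SD, n = 10) and 0.918% ± 0.0714 (n = 9), a log2 fold change of 0.46 ± 0.10 (SE, edgeR adjusted p = 0.0112), and NC spleens ranged from 0.905% to 1.25%.

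IGHV14-3 ranged from 1.36% over a median of 1.52% to 1.75% in NOD-FMT spleens and from 0.973% over 1.28% to 1.42% in PBS-T spleens. The ranges overlapped, and again all 10 NOD-FMT mice lay above the PBS-T median. The means were 1.54% ± 0.131 (SD, n = 10) and 1.24% ± 0.168 (n = 9), a log2 fold change of 0.30 ± 0.08 (SE, edgeR adjusted p = 0.0229). This call was lost at full depth (0.17, adjusted p = 0.212) and when NOD-FMT mouse 6, 7 or 9 or PBS-T mouse 6 was left out, with adjusted p up to 0.0579 over all 19 mice left out in turn.

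The parts of these receptors that IGHV genes encode are shown because both genes recur in the class comparisons that follow. The CDR1 and CDR2 below are the nucleotides that the deposited sequences of each gene hold at their most common number of germline mismatches. IGHV8-5 and IGHV8-8, a pair of related genes of the IGHV8 family, are shown beside them because they moved in opposite directions in IgG.
IGHV14-3 CDR1: ggcttcaacattaaaaacacctat
IGHV14-3 CDR2: attgatcctgcgaatggtaatact
IGHV1-59 CDR1: ggctacaccttcaccagctactgg
IGHV1-59 CDR2: attgatccttctgatagttatact
IGHV8-5 CDR1: gggttttcactgagcacttctaatatgggt
IGHV8-5 CDR2: atttggtggaatgatgataag
IGHV8-8 CDR1: gggttttcactgagcacttttggtatgggt
IGHV8-8 CDR2: atttggtgggatgatgataag

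Within isotype classes, the folds of IGHV14-3 and IGHV1-59 were larger in switched clonotypes than in IgM or IgD. In IgA, NOD-FMT spleens held 2.63 times the PBS-T share of IGHV14-3 and 2.8 times that of IGHV1-59. In IgG the folds were 2.51 and 2.22. In IgM or IgD no gene passed, and the log2 fold changes of the pair were 0.12 ± 0.07 (SE, edgeR adjusted p = 0.851) and 0.35 ± 0.09 (adjusted p = 0.101). The mean IgM or IgD shares of IGHV1-59 were 1.16% and 0.914% (exact permutation, p = 0.000639, adjusted p = 0.0588). This mean was thus also higher in NOD-FMT, without passing in either test after adjustment. How much of the larger IGHV1-59 share over all isotypes lay in each class was not tested. A clonotype was counted in each class of which it held a sequence. The limit of a mean of at least 10 clonotypes per mouse was applied again within each class, over the mice of both groups together. The class tests passed 8 of 46 genes in IgA (17.4%), 4 of 53 in IgG (7.55%) and 0 of 92 in IgM or IgD (0.0%). In IgM or IgD 4 genes (4.35%) had an unadjusted p under 0.05 and DESeq2 called 1, IGHV1-59. In IgA, 4 genes were higher (8.7%) and 4 lower (8.7%) in NOD-FMT, and in IgG 3 were higher (5.66%) and 1 lower (1.89%). Unadjusted, 14 genes passed in IgA (30.4%) and 14 in IgG (26.4%).

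The IgA share of IGHV14-3 ranged from 2.49% over a median of 3.70% to 6.12% in NOD-FMT spleens and from 0.89% over 1.19% to 2.79% in PBS-T spleens. PBS-T mouse 3 alone reached into the NOD-FMT range. The means were 3.84% ± 1.12 (SD, n = 10) and 1.42% ± 0.577 (n = 9), a log2 fold change of 1.40 ± 0.19 (SE, edgeR adjusted p = 6.72e-07), with NC spleens between 1.11% and 1.89%. In IgG, IGHV14-3 ranged from 1.96% over 2.83% to 5.76% in NOD-FMT and from 0.676% over 1.171% to 1.60% in PBS-T spleens. These 2 ranges did not overlap, the only such case among the 53 IgG genes (1.89%). The log2 fold change was 1.33 ± 0.19 (SE, edgeR adjusted p = 8.82e-07), and NC spleens lay between 0.758% and 1.68%.

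IGHV1-59 ranged in IgA from 1.173% over 2.31% to 3.58% in NOD-FMT and from 0.375% over 0.684% to 1.45% in PBS-T spleens. The lowest NOD-FMT mouse lay within the PBS-T range and above its median. The log2 fold change was 1.49 ± 0.21 (SE, edgeR adjusted p = 1.09e-06), against an NC range of 0.804% to 1.49%. In IgG it ranged from 1.32% over 1.74% to 4.91% in NOD-FMT spleens, the highest being NOD-FMT mouse 3, and from 0.614% over 0.83% to 1.50% in PBS-T spleens. All 10 NOD-FMT mice were again above the PBS-T median, with a log2 fold change of 1.15 ± 0.23 (SE, edgeR adjusted p = 0.00015). These 4 class calls held with each of the 19 mice left out in turn.

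**Figure D1:**
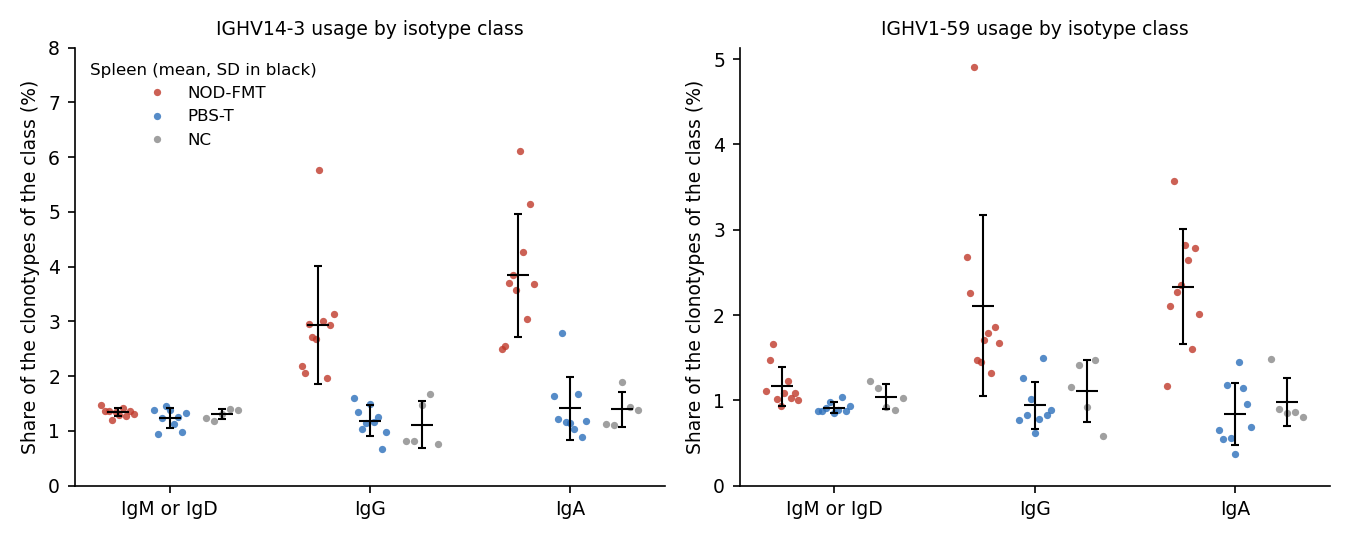
Share of the clonotypes of an isotype class that used IGHV14-3 (left) or IGHV1-59 (right), in percent, for each spleen at equal depth. Points are 10 NOD-FMT, 9 PBS-T and 5 NC mice, and black bars are the mean and SD. In IgG, the NOD-FMT points for IGHV14-3 lie between 1.96% and 5.76% and the PBS-T points between 0.676% and 1.60%.

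Whether the difference was larger in switched clonotypes than in IgM or IgD of the same mouse was tested on the within-mouse log2 ratio of the shares, over all genes tested in both classes. It passed 6 of 46 genes for IgA (13%) and 7 of 53 for IgG (13.2%). For IGHV14-3 the mean log2 ratio of IgA over IgM or IgD was 1.48 ± 0.438 (SD, n = 10) in NOD-FMT and 0.18 ± 0.466 (n = 9) in PBS-T mice, a difference of 1.30 (two-sided exact permutation, adjusted p = 0.00299). The difference for IGHV1-59 in IgA was 1.15 (exact permutation, adjusted p = 0.00672). In IgG the differences were 1.12 for IGHV14-3 (exact permutation, adjusted p = 0.000574) and 0.74 for IGHV1-59 (adjusted p = 0.0043). So both genes were shifted more in the switched classes than in IgM or IgD.

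The other genes that passed within a class were picked out after their values were seen. In IgG, IGHV8-8 was lower and IGHV8-5 higher in NOD-FMT spleens. The IgG share of IGHV8-8 ranged from 0.78% over 1.24% to 1.77% in NOD-FMT and from 1.49% over 1.95% to 4.64% in PBS-T spleens. The ranges overlapped, and all 10 NOD-FMT mice lay below the PBS-T median, with a log2 fold change of -1.11 ± 0.20 (SE, edgeR adjusted p = 5.31e-05). NC spleens, between 1.21% and 2.72%, spanned much of both groups. The IgG share of IGHV8-5 was 0.874% ± 0.473 (SD, n = 10) against 0.274% ± 0.173 (n = 9), a log2 fold change of 1.55 ± 0.34 (SE, edgeR adjusted p = 0.000693), with NC spleens between 0.227% and 0.503%. Its PBS-T mean lay under the limit of 10 clonotypes per mouse, so it entered the test only through NOD-FMT, where it was higher. With clonotypes that differ at 1 HCDR3 residue joined into 1, the call for IGHV8-5 was lost (1.10, adjusted p = 0.0537). The IgG difference exceeded that in IgM or IgD for IGHV8-8 (-0.83, exact permutation, adjusted p = 0.00612) and IGHV8-5 (1.50, adjusted p = 0.00875). It also did for IGHV1-80 (0.35, exact permutation, adjusted p = 0.0404), IGHV1-42 (0.50, adjusted p = 0.0404) and IGHV1-63 (0.73, adjusted p = 0.0443). Within IgG edgeR passed none of these 3 (adjusted p = 0.18, 0.0519 and 0.0676), while the exact permutation test of the IgG shares passed IGHV1-42 (adjusted p = 0.0282) and IGHV1-63 (adjusted p = 0.0452). Like IGHV8-5, IGHV1-63 had a PBS-T mean under the limit of 10 clonotypes per mouse and was tested only through NOD-FMT.

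In IgA, IGHV10-3 and IGHV1-76 were higher, and IGHV5-6, IGHV2-3, IGHV9-3 and IGHV1-61 lower in NOD-FMT spleens. IGHV10-3 is of the IGHV10 family, known from antibodies to DNA in lupus-prone mice. Its IgA share ranged from 0.722% over 0.937% to 1.66% in NOD-FMT and from 0.292% over 0.55% to 0.832% in PBS-T spleens, with all 10 NOD-FMT mice above the PBS-T median (log2 fold change 0.91 ± 0.23, SE, edgeR adjusted p = 0.0032). The PBS-T mean of this gene lay under the limit of 10 clonotypes per mouse, so it was tested only through NOD-FMT, where it was higher. NC spleens reached 1.12%, and at full depth the call was lost (0.64, adjusted p = 0.0801). IGHV1-76 made up 3.49% ± 0.635 (SD, n = 10) against 2.28% ± 0.654 (n = 9) of IgA clonotypes, a log2 fold change of 0.58 ± 0.15 (SE, edgeR adjusted p = 0.00378), and NC spleens, from 1.63% to 3.69%, spanned both means.

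IGHV5-6 made up 0.718% ± 0.176 (SD, n = 10) of the IgA clonotypes in NOD-FMT and 1.43% ± 0.546 (n = 9) in PBS-T spleens, a log2 fold change of -1.01 ± 0.21 (SE, edgeR adjusted p = 0.000426). For IGHV2-3 the shares were 0.689% ± 0.311 and 1.43% ± 0.538, a log2 fold change of -0.93 ± 0.24 (edgeR adjusted p = 0.00371). All 10 NOD-FMT mice lay below the PBS-T median for both genes. NC spleens held 0.637% to 1.45% for IGHV5-6, a range that includes both means, and 0.22% to 0.929% for IGHV2-3, a range that includes the NOD-FMT mean and lies below the PBS-T mean. IGHV9-3 (-0.48 ± 0.16) and IGHV1-61 (-0.69 ± 0.23) passed at an adjusted p of 0.0346 and kept the call in 8 and 10 of the 19 fits with 1 mouse left out, with adjusted p up to 0.0982 and 0.111. IGHV9-3 lost it when NOD-FMT mouse 1, 2, 6, 7 or 8 or PBS-T mouse 1, 2, 3, 5, 8 or 9 was left out, and IGHV1-61 when NOD-FMT mouse 1, 6 or 8 or PBS-T mouse 1, 3, 4, 5, 6 or 7 was. The NOD-FMT mean of IGHV1-61 lay under the limit of 10 clonotypes per mouse, so this gene was tested only through PBS-T, where it was higher. The exact permutation test of the IgA shares also passed IGHV2-2, lower in NOD-FMT with 0.924% against 1.18% (adjusted p = 0.0491), which edgeR did not (-0.37 ± 0.17, adjusted p = 0.134). The IgA difference exceeded that in IgM or IgD for IGHV5-6 (-0.96, exact permutation, adjusted p = 0.0192), IGHV2-3 (-1.13, adjusted p = 0.0195) and IGHV1-76 (0.58, adjusted p = 0.0293). For IGHV9-3 (adjusted p = 0.0627) and IGHV1-61 (adjusted p = 0.0829) it did not pass. For IGHV10-3 it was 0.79 (exact permutation, adjusted p = 0.0171), but this gene entered the test only through NOD-FMT, where it was higher, so this pass is no separate support.

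**Figure D2:**
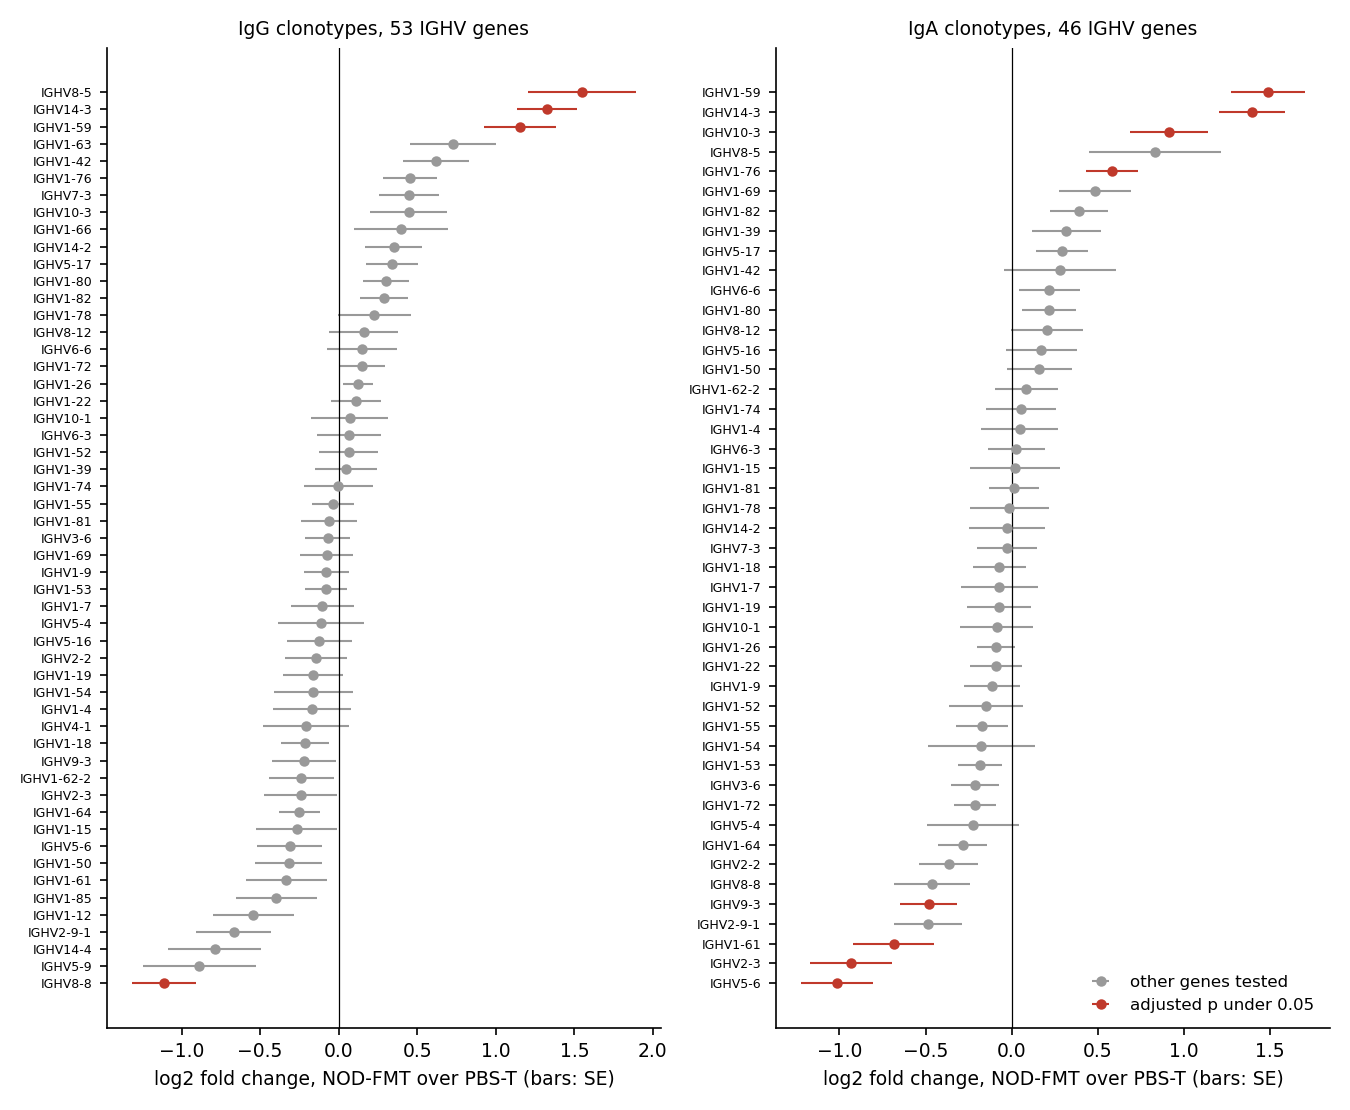
log2 fold change of the clonotype share, NOD-FMT over PBS-T, for the 53 IGHV genes tested in IgG (left) and the 46 tested in IgA (right), with SE bars from edgeR. Red marks an adjusted p under 0.05, which 4 genes passed in IgG and 8 in IgA, and IGHV14-3 and IGHV1-59 lie near the upper end in both.

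The number of clonotypes in a class, which sets the precision of its shares, did not pass a test of difference. IgA clonotypes numbered 1607 ± 323 (SD, n = 10) and 1464 ± 669 (n = 9) at equal depth (exact permutation, adjusted p = 0.549), and IgG clonotypes 2041 ± 431 and 1651 ± 481 (adjusted p = 0.24).

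The switched clonotypes of IGHV14-3 and IGHV1-59 were then described at full depth, a set of 40 comparisons chosen after the class results were seen. By share of the class counts, IGHV1-59 in IgG did not pass, with 3.72% ± 6.81 (SD, n = 10) against 0.789% ± 0.51 (n = 9) (exact permutation, adjusted p = 0.0992). Higher shares in NOD-FMT passed for IGHV1-59 in IgA (exact permutation, adjusted p = 0.00707) and for IGHV14-3 in IgA and IgG (each adjusted p = 0.044). Both genes were picked for higher clonotype shares in these same classes and mice, so these passes are no separate support. NOD-FMT spleens held 143.6 ± 60.3 (SD, n = 10) IgA clonotypes of IGHV14-3 and PBS-T spleens 48.8 ± 29.4 (n = 9), and joining those that differ at 1 HCDR3 residue left 108 ± 40.9 and 38.8 ± 23.4 groups. The largest single clonotype, without joining, held 16.97% ± 6.60 of the IGHV14-3 IgA counts in NOD-FMT and 32.7% ± 19.9 in PBS-T spleens (exact permutation, adjusted p = 0.0281). The numbers of clonotypes and the depths also differed between the groups. The share of the largest clonotype did not pass for IGHV14-3 in IgG (adjusted p = 0.179) or for IGHV1-59 in IgA (adjusted p = 0.677) or IgG (adjusted p = 0.683). After the removal of sequences found in more than 2 spleens, 90.2% ± 2.69 and 85.5% ± 6.28 of the IGHV14-3 IgA clonotypes were found in 1 spleen, beside 85.7% ± 2.42 and 84.2% ± 2.33 of the IGHV14-3 clonotypes in IgM or IgD.

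The largest IgA clonotype of IGHV14-3 had its own HCDR3 in each of the 10 NOD-FMT mice. Their HCDR3 nucleotides are given 5′ to 3′, with the 3′ run that matches the germline IGHJ segment in capitals (that of NOD-FMT mouse 2 has no such run). None of these 10 was found in a second spleen, in data from which sequences of more than 2 spleens had been removed. This is near the share for all IGHV14-3 IgA clonotypes, of which 90.2% in NOD-FMT and 85.5% in PBS-T spleens were found in 1 spleen. Of the 10 largest IgA clonotypes of IGHV1-59, that of NOD-FMT mouse 9 was found in 3 spleens and that of NOD-FMT mouse 3 in 6.
NOD-FMT 1, IGHJ2: cgattacgCTTTGACTAC
NOD-FMT 2, IGHJ3: gctaaggactatagtaactccggtgtttat
NOD-FMT 3, IGHJ2: gctaggggctgggACTTTGACTAC
NOD-FMT 4, IGHJ2: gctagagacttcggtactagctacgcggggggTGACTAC
NOD-FMT 5, IGHJ2: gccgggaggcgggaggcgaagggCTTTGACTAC
NOD-FMT 6, IGHJ3: gctagagggcattacgacgatTTTGCTTAC
NOD-FMT 7, IGHJ3: gcctctgatggttacaagGCTTAC
NOD-FMT 8, IGHJ4: gctggagagggggtccggATGGACTAC
NOD-FMT 9, IGHJ2: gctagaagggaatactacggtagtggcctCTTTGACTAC
NOD-FMT 10, IGHJ2: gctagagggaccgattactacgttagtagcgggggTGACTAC
Their lengths ran from 6 to 14 residues, and they used IGHJ2, IGHJ3 or IGHJ4.

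The HCDR3 of these switched clonotypes carried a higher net charge in NOD-FMT spleens, counted as lysine and arginine minus aspartate and glutamate. For IGHV14-3 in IgA the mean charge was -0.11 ± 0.157 (SD, n = 10) in NOD-FMT and -0.50 ± 0.304 (n = 9) in PBS-T mice (exact permutation, adjusted p = 0.00552). For IGHV1-59 it was 0.30 ± 0.163 against -0.05 ± 0.172 in IgA (exact permutation, adjusted p = 0.00552) and 0.24 ± 0.228 against -0.27 ± 0.296 in IgG (adjusted p = 0.00707). IGHV14-3 in IgG did not pass (adjusted p = 0.365). NC spleens ranged from -0.60 to -0.33 for IGHV14-3 in IgA, and for IGHV1-59 from -0.51 to 0.31 in IgA, which includes both group means, and from -0.78 to 0.00 in IgG.

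IGHJ4 was also used more often by switched IGHV1-59 clonotypes, in 33.1% ± 10.3 (SD, n = 10) against 17.1% ± 11.7 (n = 9) of those in IgA (exact permutation, adjusted p = 0.0281) and in 37.4% ± 8.96 against 22.1% ± 8.64 of those in IgG (adjusted p = 0.0121). NC spleens ranged from 7.32% to 32.1% in IgA and from 14.3% to 40.6% in IgG, the latter including both group means. In IgM or IgD, IGHJ4 made up 27.1% ± 2.71 and 25.6% ± 2.03 of IGHV1-59 clonotypes. One of them, in NOD-FMT mouse 3, was among the largest clonotypes of all spleens, with 4.71% of that library and 42.8% of its counts in IGHG3, and 6 spleens held it.
NOD-FMT 3, IGHV1-59/IGHJ4: gcaagggagATGGACTAC

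The unmutated share of these clonotypes was lower in NOD-FMT spleens, while the mean number of mismatches passed in 1 of 4 comparisons. Per clonotype, 25.1% ± 4.64 (SD, n = 10) of the IgG sequences of IGHV14-3 matched the germline IGHV gene without a mismatch, against 41.9% ± 8.69 (n = 9) in PBS-T spleens (exact permutation, adjusted p = 0.0013). The values for IGHV1-59 in IgG were 24.8% ± 8.38 and 45.2% ± 11.5 (exact permutation, adjusted p = 0.00552). In IgA the unmutated shares were 28.2% ± 5.41 against 42.0% ± 15.3 for IGHV14-3 (adjusted p = 0.044) and 25.0% ± 11.5 against 46.4% ± 15.3 for IGHV1-59 (adjusted p = 0.0182). The mean number of mismatches was 3.56 ± 0.628 against 2.74 ± 0.658 for IGHV14-3 in IgG (exact permutation, adjusted p = 0.044). It did not pass for IGHV1-59 in IgG (3.06 against 2.08, adjusted p = 0.0664) or IgA (3.5 against 2.55, adjusted p = 0.163), nor for IGHV14-3 in IgA, where it was 3.35 in NOD-FMT and 3.51 in PBS-T spleens (adjusted p = 0.857). The PBS-T values rest on few clonotypes, 6 to 66 per mouse for IGHV1-59 in IgA and 8 to 83 in IgG, against 51 to 441 and 54 to 919 in NOD-FMT. For IGHV14-3 they rest on 10 to 91 in IgA and 12 to 62 in IgG, against 85 to 244 and 83 to 431. NC spleens ranged from 22.2% to 33.4% for IGHV1-59 and from 19.4% to 50.5% for IGHV14-3 in IgA, and from 27.8% to 57.5% and from 24.5% to 50.6% in IgG.

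Over all isotypes together, no difference passed for the most used IGHV genes. The 10 most used over the 19 mice were IGHV1-26, IGHV1-53, IGHV1-64, IGHV1-55, IGHV1-72, IGHV6-3, IGHV3-6, IGHV9-3, IGHV1-9 and IGHV5-17. Their log2 fold changes ran from -0.07 for IGHV6-3 to 0.07 for IGHV5-17, with edgeR adjusted p of 0.814 or more. IGHV1-26, the most used gene, made up 7.56% ± 0.912 (SD, n = 10) and 7.67% ± 0.64 (n = 9) of the clonotypes.

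Genes tied to known specificities or B cell subsets were examined next. IGHV11-2 and IGHV12-3 are typical of B-1 cells, a subset that makes natural antibodies, and were rare. IGHV11-2 made up 0.0782% ± 0.0103 (SD, n = 10) of the clonotypes in NOD-FMT and 0.0956% ± 0.0156 (n = 9) in PBS-T spleens, and this did not pass (log2 fold change -0.26 ± 0.11, SE, edgeR adjusted p = 0.814). By count its value was higher in NOD-FMT, 0.275% ± 0.291 against 0.169% ± 0.123, and did not pass either (0.70 ± 0.50, edgeR adjusted p = 0.592). IGHV12-3 gave -0.22 ± 0.21, and IGHV11-1 had too few clonotypes to be tested. IGHV7-1, used against phosphorylcholine, made up 0.383% ± 0.0461 and 0.368% ± 0.0374 of the clonotypes. IGHV1-72, used by B6 mice against the hapten NP, had a log2 fold change of 0.04 ± 0.06.

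IGHV10-1, the other gene of the DNA-antibody family, stood at 1.68% in both groups, and in IgA its log2 fold change was -0.09 ± 0.21 (SE, edgeR adjusted p = 0.859) beside 0.91 for IGHV10-3. IGHV6-3 and IGHV6-6, picked because shared gland clonotypes use them, had log2 fold changes of -0.07 ± 0.09 and 0.01 ± 0.10. IGHV1-9 and IGHV5-2, which is favoured in early B cell precursors, gave -0.05 ± 0.05 and -0.03 ± 0.14.

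By family, no difference passed among 15 IGHV families (0.0%), with 2 at an unadjusted p under 0.05. The IGHV11 family was at 0.0823% ± 0.0106 (SD, n = 10) in NOD-FMT and 0.10% ± 0.0168 (n = 9) in PBS-T spleens, lower in 9 of 10 NOD-FMT mice than the PBS-T median (exact permutation, p = 0.0059, adjusted p = 0.0885). It passed when 1 of NOD-FMT mouse 3 and PBS-T mice 1 and 3 was left out. By count the direction was the opposite, with 0.281% ± 0.289 and 0.173% ± 0.121 (exact permutation, adjusted p = 0.828). The IGHV14 family stood at 4.67% ± 0.245 and 4.30% ± 0.459 (exact permutation, p = 0.026, adjusted p = 0.195). IGHV1, with 60.2% ± 2.77 and 60.1% ± 2.11 of the clonotypes, dominated both groups. The next largest were IGHV5 with 7.30% and 7.24%, IGHV2 with 6.26% and 6.44%, IGHV6 with 4.33% and 4.45%, IGHV9 with 4.05% and 4.23%, IGHV3 with 3.93% and 4.02% and IGHV8 with 3.57% and 3.69%. IGHV10, IGHV7, IGHV4, IGHV13, IGHV15 and IGHV12 each held under 2.53% in either group. None of these 12 had an unadjusted p under 0.05.

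Counting transcripts in place of clonotypes gave wider spreads and no call among the 93 genes in edgeR (0.0%), with 14 (15.1%) at an unadjusted p under 0.05. DESeq2 called 4 genes, IGHV1-36, IGHV1-59, IGHV14-3 and IGHV8-5. IGHV1-59 ranged from 0.643% over 1.22% to 6.99% of counts in NOD-FMT and from 0.48% over 0.652% to 1.00% in PBS-T spleens. Its log2 fold change was 1.45 ± 0.37 (SE, edgeR adjusted p = 0.0527), and it passed when NOD-FMT mouse 5, 7 or 8 or PBS-T mouse 7 or 8 was left out. The NOD-FMT counts of IGHV1-59 include the IGHV1-59/IGHJ4 clonotype that held 4.71% of the library of NOD-FMT mouse 3. What part of the difference that clonotype makes up was not tested. IGHV14-3 had 1.67% ± 0.609 (SD, n = 10) against 0.981% ± 0.385 (n = 9) of counts (0.77 ± 0.24, edgeR adjusted p = 0.0725). IGHV2-9-1 had 1.05% ± 0.375 against 6.13% ± 13.6 of counts (-2.54 ± 0.68, edgeR adjusted p = 0.0527). The PBS-T value includes the IGHV2-9-1/IGHJ2 clonotype that held 40.0% of the filtered counts of PBS-T mouse 6. How much of the difference rests on this clonotype was not tested.

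The 4 IGHJ segments, which encode the end of the HCDR3, did not differ detectably by clonotype, while IGHJ4 took a larger share of the counts in NOD-FMT spleens. They are shown 5′ to 3′ with the codon of the conserved tryptophan in capitals, since the HCDR3 ends just before it, and since the capitals in the HCDR3 sequences are read against them. All are on the minus strand (GRCm38), IGHJ1 at chr12:113429781-113429833, IGHJ2 at chr12:113429468-113429515, IGHJ3 at chr12:113429085-113429132 and IGHJ4 at chr12:113428514-113428567.
IGHJ1: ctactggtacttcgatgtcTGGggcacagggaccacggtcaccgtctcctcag
IGHJ2: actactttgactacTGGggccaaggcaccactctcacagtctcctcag
IGHJ3: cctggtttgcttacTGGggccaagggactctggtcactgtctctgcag
IGHJ4: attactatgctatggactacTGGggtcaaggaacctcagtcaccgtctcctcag

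Of the counts, IGHJ4 took 20.7% in the lowest NOD-FMT spleen, 23.8% in the median and 30.9% in the highest, and 14.3%, 20.3% and 24.1% in PBS-T spleens. The ranges overlapped, with all 10 NOD-FMT mice above the PBS-T median. The means were 24.7% ± 3.13 (SD, n = 10) and 20.7% ± 2.96 (n = 9), and IGHJ4 was the 1 of 4 genes that passed (25.0%, exact permutation, p = 0.00629, adjusted p = 0.0252). The call was lost without PBS-T mouse 8 (adjusted p = 0.0521) or PBS-T mouse 9 (0.0515). These counts include IGHJ4 clonotypes with 8.84% of the library of NOD-FMT mouse 8 and 4.71% of that of NOD-FMT mouse 3. They also include the IGHJ2 clonotype with 40.0% of the library of PBS-T mouse 6, the mouse with the 14.3% for IGHJ4. How much of the difference rests on these clonotypes was not tested. By clonotype IGHJ4 stood at 25.9% ± 1.28 and 25.4% ± 0.907 (exact permutation, adjusted p = 0.571), and no IGHJ gene passed by clonotype, with none at an unadjusted p under 0.05.

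The length of the HCDR3 did not differ detectably, while its charge was less negative in NOD-FMT spleens. The mean length per clonotype was 11.38 ± 0.173 residues (SD, n = 10) in NOD-FMT and 11.43 ± 0.144 (n = 9) in PBS-T spleens (exact permutation, p = 0.531), and the shares of clonotypes with up to 7, 8 to 16 and 17 or more residues did not pass either. Among 20 residues none passed (0.0%). Arginine had the lowest p, with 9.31% and 9.12% of residues (exact permutation, p = 0.00406, adjusted p = 0.0812), followed by asparagine (p = 0.0271) and glycine (p = 0.0354).

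The net charge per HCDR3 ranged from -0.269 over -0.254 to -0.20 in NOD-FMT and from -0.323 over -0.28 to -0.221 in PBS-T spleens. The ranges overlapped widely, yet all 10 NOD-FMT mice were above the PBS-T median. The difference of means was 0.03 (exact permutation, adjusted p = 0.0242), and it was lost without PBS-T mouse 2 (adjusted p = 0.052) and at full depth (0.0174, adjusted p = 0.123). The mean Kyte-Doolittle hydropathy, in which a lower value is more hydrophilic, was -0.677 ± 0.0044 (SD, n = 10) against -0.668 ± 0.00686 (n = 9) (exact permutation, adjusted p = 0.00898).

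By class, a split added after the values were seen, the charge difference was 0.12 in IgG, from -0.263 ± 0.0863 (SD, n = 9) in PBS-T to -0.14 ± 0.0603 (n = 10) in NOD-FMT spleens, with 9 of 10 NOD-FMT mice above the PBS-T median (exact permutation, adjusted p = 0.00705). In IgA it was 0.0877 (exact permutation, adjusted p = 0.0309), and in IgM or IgD 0.0211 (adjusted p = 0.0686), so 2 of 3 classes passed (66.7%). The IgA call was lost without NOD-FMT mouse 3, 5 or 7 or PBS-T mouse 1, 3 or 8 (adjusted p up to 0.0622), whereas the IgG call held without any 1 mouse. At full depth without the IGHV14-3 and IGHV1-59 clonotypes, the IgG difference was 0.114 (exact permutation, p = 0.00275) beside 0.121 with them, and the IgA difference 0.0613 (p = 0.0704) beside 0.0749 (p = 0.0291).

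**Figure D3:**
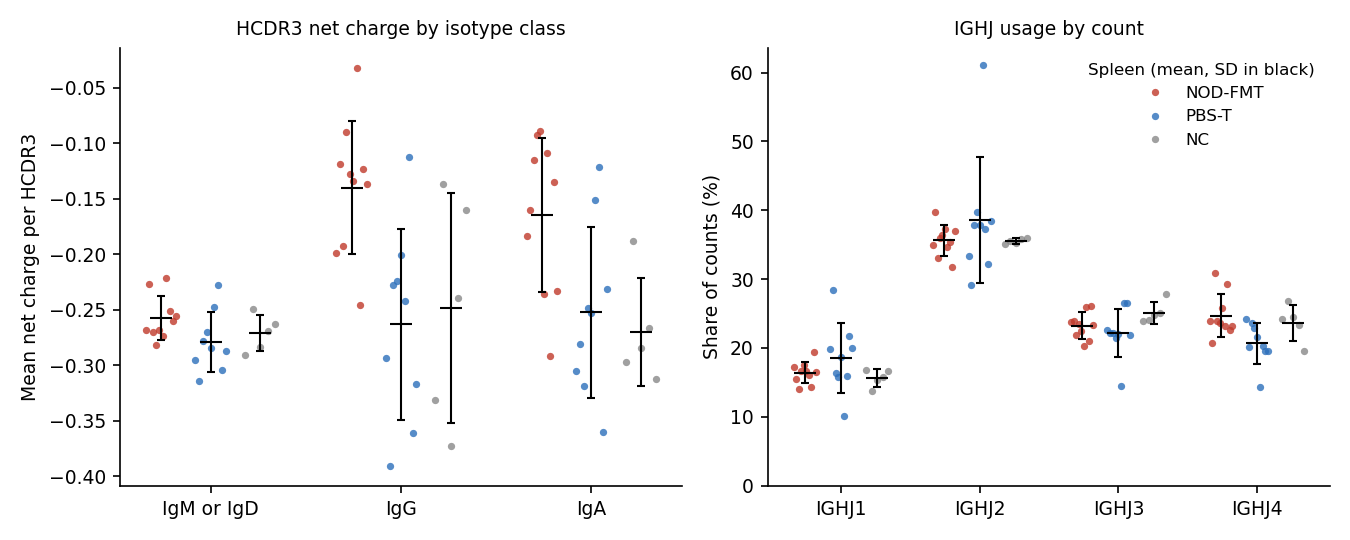
Mean net charge per HCDR3 in each isotype class (left, in elementary charges, clonotypes at equal depth) and share of counts of each IGHJ gene in percent (right), for spleens of 10 NOD-FMT, 9 PBS-T and 5 NC mice, with mean and SD in black. The IgG charge is higher in NOD-FMT than in PBS-T by 0.12 on average, and PBS-T mouse 6 stands at 61.1% for IGHJ2.

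Among isotypes, IGHG3 took a larger share of the counts in NOD-FMT spleens. IGHG3 is a mouse IgG subclass known for responses to carbohydrates. It took 0.32% in the lowest NOD-FMT spleen, 3.02% in the median and 5.48% in the highest, and 0.71%, 1.03% and 2.10% in PBS-T spleens. The ranges overlapped, and 9 of 10 NOD-FMT mice lay above the PBS-T median. The means were 2.75% ± 1.37 (SD, n = 10) and 1.15% ± 0.456 (n = 9), and IGHG3 alone passed among 8 isotypes (12.5%, exact permutation, p = 0.00284, adjusted p = 0.0227). NC spleens lay between 0.424% and 1.71%. By clonotype the shares were 1.10% ± 0.334 and 0.777% ± 0.229 (exact permutation, adjusted p = 0.10).

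The remaining isotypes did not pass. IGHM took 68.2% ± 6.52 (SD, n = 10) and 73.9% ± 6.82 (n = 9) of the counts (exact permutation, adjusted p = 0.181). IGHA took 10.9% ± 2.95 and 9.51% ± 5.73 (adjusted p = 0.651), below the NC range of 13.3% to 24.3% in the mean of each group. IGHG2B took 6.55% ± 2.22 and 5.10% ± 2.74, and IGHG2C 4.04% ± 2.09 and 4.06% ± 3.06. IGHD took 6.47% ± 1.37 and 5.24% ± 1.28, IGHG1 1.05% ± 0.637 and 1.06% ± 0.544, and IGHE 0.0101% and 0.0199%.

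Clonotypes of IGHA, IGHG1 and IGHG2B were less often unmutated in NOD-FMT spleens, with the lowest p in IGHA. The unmutated share of IGHA, the mean over clonotypes of the share of their sequences without a germline mismatch, ranged from 28.5% over 30.9% to 33.0% in NOD-FMT and from 32.5% over 38.4% to 45.4% in PBS-T spleens. The ranges touch at their ends, and all 10 NOD-FMT mice were below the PBS-T median. The means were 30.7% ± 1.42 (SD, n = 10) and 38.6% ± 4.25 (n = 9) (exact permutation, p = 3.25e-05, adjusted p = 0.000227), and NC spleens lay lower still, between 25.0% and 28.9%. Weighted by counts the difference did not pass (adjusted p = 0.0848).

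IGHA, IGHG1 and IGHG2B were the 3 of 7 isotypes that passed (42.9%). The unmutated shares of IGHG1 and IGHG2B were 27.9% ± 8.14 (SD, n = 10) against 37.7% ± 6.93 (n = 9) and 35.1% ± 3.91 against 45.4% ± 10.9, each with an adjusted p of 0.033 (exact permutation). Both calls were lost without any 1 of 10 mice, NOD-FMT 1, 2, 4, 7 and 9 and PBS-T 1, 3, 4, 5 and 9, with adjusted p up to 0.0627, and without PBS-T mouse 2 the number of isotypes that passed was 5. IGHG2C, with 37.6% ± 6.11 against 45.1% ± 14.0 (exact permutation, adjusted p = 0.193), and IGHG3, with 37.3% ± 4.78 against 44.6% ± 11.4 (adjusted p = 0.142), did not pass. In IGHM the unmutated shares were 81.0% ± 6.49 and 80.0% ± 5.89 and in IGHD 85.0% ± 7.49 and 85.7% ± 6.22, neither of which passed.

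Restricting the test to clonotypes without an IgM or IgD sequence in the same spleen, a setting added after the values were seen, left 4 isotypes to test, all of which passed. IGHA stood at 28.1% ± 1.81 (SD, n = 10) and 35.5% ± 4.61 (n = 9) (exact permutation, adjusted p = 0.00039), IGHG1 at 24.1% ± 2.91 and 35.6% ± 8.99 (adjusted p = 0.000981), IGHG2B at 29.9% ± 3.47 and 42.4% ± 9.64 (adjusted p = 0.000981) and IGHG2C at 28.3% ± 4.24 and 37.1% ± 10.8 (adjusted p = 0.0291). The germline reference bears on these values, since IGHV8-5, IGHV1-69 and IGHV2-6-1 had 1 mismatch as their most common number in IgM and IgD, and under 0.32% of their sequences had none. These genes were therefore left out at full depth, 31 genes of which under 20% of the IgM and IgD sequences were unmutated and which hold 3.5% of IgM and IgD sequences. With all genes at full depth the differences were -6.28 percentage points in IGHA (exact permutation, adjusted p = 0.000227), -8.23 in IGHG1 (adjusted p = 0.00371) and -8.61 in IGHG2B (adjusted p = 0.0204). Without the 31 genes they were -6.10 (exact permutation, adjusted p = 0.00053), -8.31 (adjusted p = 0.00405) and -8.83 (adjusted p = 0.0182). IGHG2C (-5.54 with and -5.60 without these genes) and IGHG3 (-2.42 and -1.37) did not pass at full depth.

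The mean number of mismatches per clonotype passed for 1 of 7 isotypes (14.3%). IGHG1 carried 3.31 ± 0.376 (SD, n = 10) in NOD-FMT and 2.58 ± 0.572 (n = 9) in PBS-T spleens, higher in 10 of 10 NOD-FMT mice than the PBS-T median (exact permutation, adjusted p = 0.0361). This call, made at 311 IGHG1 counts per mouse, was lost in 13 of 19 cases with 1 mouse left out, with adjusted p up to 0.0771 (without PBS-T mouse 1). The other isotypes, from 0.532 against 0.51 in IGHD to 3.12 against 2.99 in IGHA, did not pass. At full depth, where depths differed between mice, IGHG1 carried 3.59 ± 0.300 against 2.89 ± 0.476 mismatches (exact permutation, adjusted p = 0.0117). Without the 31 genes left out above, the values were 3.46 and 2.85 (adjusted p = 0.0364).

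**Figure D4:**
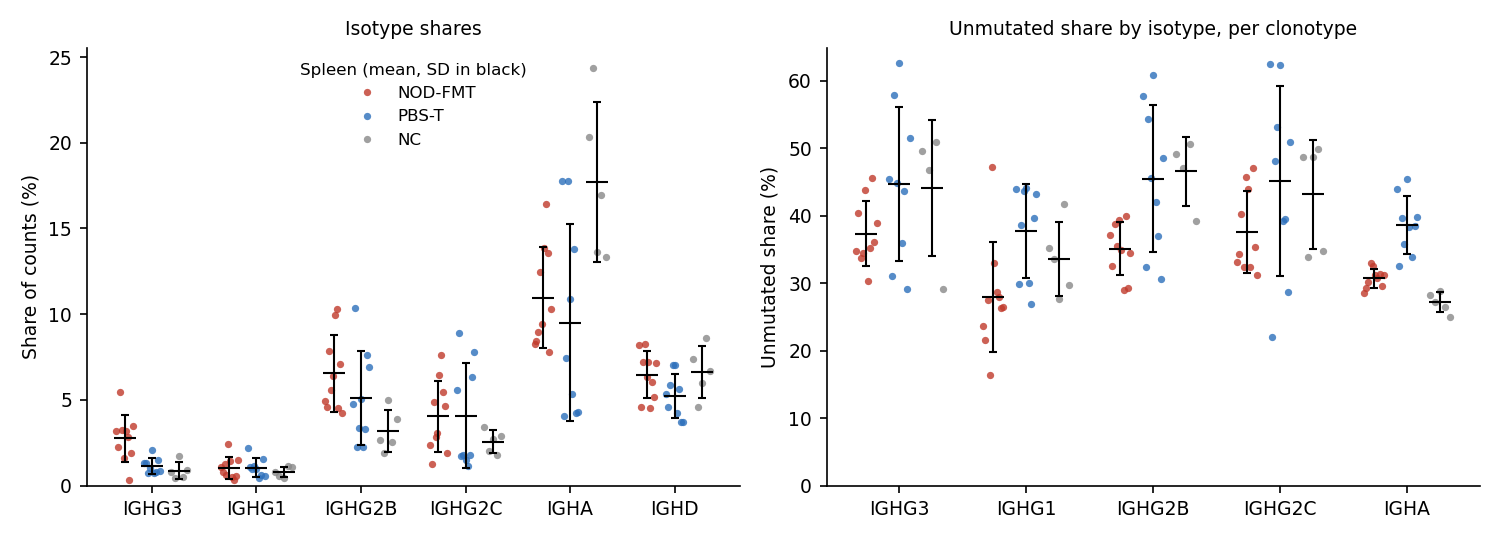
Share of counts of 6 isotypes in percent (left) and unmutated share per clonotype in percent (right) in spleens of 10 NOD-FMT, 9 PBS-T and 5 NC mice, with mean and SD in black. IGHG3 counts lie above 2.10%, the PBS-T maximum, in most NOD-FMT mice, and the unmutated share of IGHA lies between 28.5% and 33.0% in NOD-FMT and between 32.5% and 45.4% in PBS-T mice.

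Clonal evenness did not differ detectably between the groups, and PBS-T mouse 6 widened the PBS-T spread. Pielou evenness, which is 1 when all clonotypes are equally large, ranged from 0.838 over 0.859 to 0.903 in NOD-FMT and from 0.597 over 0.85 to 0.905 in PBS-T spleens. The ranges overlapped, and the means were 0.869 ± 0.0249 (SD, n = 10) and 0.827 ± 0.0933 (n = 9) (exact permutation, p = 0.165, adjusted p = 0.232). None of 6 measures passed (0.0%), and none had an unadjusted p under 0.05. The number of clonotypes at equal depth was 32491 ± 3520 and 29090 ± 6493.

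The largest clonotype took from 0.698% over a median of 1.46% to 8.85% of the counts in NOD-FMT spleens and from 1.34% over 2.11% to 40.0% in PBS-T spleens. Clonotypes above 1% of a library numbered 53, of which 23 were in NOD-FMT and 30 in PBS-T spleens, spread over 17 mice. The 6 largest are shown with the 3′ run that matches the germline IGHJ segment in capitals, since they set the upper end of these values, beside the IGHV1-59 clonotype of NOD-FMT mouse 3 already given.
PBS-T 6, IGHV2-9-1/IGHJ2: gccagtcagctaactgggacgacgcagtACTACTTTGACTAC
NOD-FMT 8, IGHV5-4/IGHJ4: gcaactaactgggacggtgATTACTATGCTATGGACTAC
PBS-T 2, IGHV1-20/IGHJ1: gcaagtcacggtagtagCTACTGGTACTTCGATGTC
NOD-FMT 3, IGHV8-12/IGHJ2: gctcgatttactacggACTACTTTGACTAC
PBS-T 9, IGHV1-26/IGHJ1: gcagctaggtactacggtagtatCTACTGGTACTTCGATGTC
An IGHV2-9-1/IGHJ2 IgM sequence with 64.3% of the deposited counts of PBS-T mouse 6 had been removed, so the evenness values of this mouse describe what was left. The clonotype of PBS-T mouse 6 listed here held 40.0% of its library after that removal, 97.5% of it IGHM, with a mean of 0.205 mismatches. That of NOD-FMT mouse 8 held 8.84%, with 54.6% of its counts in IGHA and 0.164 mismatches, and that of PBS-T mouse 2 held 4.51%, with 99.4% in IGHM and 0.0517 mismatches. The last pair held 2.29% and 2.26% of their libraries, mostly as IGHM. All but that of PBS-T mouse 9, with 1.28 mismatches, were thus close to germline, whereas the IGHV1-59 clonotype of NOD-FMT mouse 3 carried 2.99 mismatches on average.

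**Figure D5:**
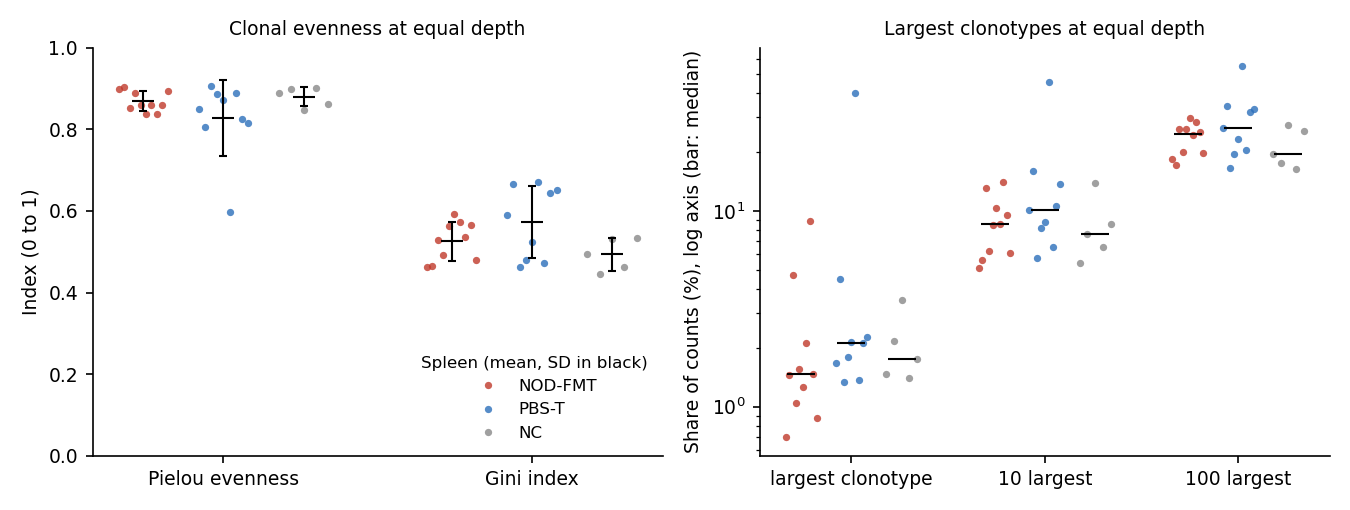
Pielou evenness and Gini index (left, from 0 to 1) and share of counts in the largest, the 10 largest and the 100 largest clonotypes (right, percent, log axis) at equal depth, for spleens of 10 NOD-FMT, 9 PBS-T and 5 NC mice. Black bars are the mean and SD on the left and the median on the right, and PBS-T mouse 6 lies apart at an evenness of 0.597 and a largest clonotype of 40.0%.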

How the data were processed

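BCR heavy-chain cDNA of 24 spleens was primed in the first constant domain with molecular identifiers. The authors merged the read pairs, filtered them by quality, clustered them by identifier without singletons into consensus sequences, and annotated isotypes and IGHV, IGHD and IGHJ genes with IMGT and IgBLAST, with mm10 as the build per the labels. The deposited duplicate counts are consensus sequences per unique nucleotide sequence, without normalization, beside each sequence's mismatch number against its germline IGHV gene. The germline release is not given in the sources used here.

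Identical sequences found in more than 2 of the 24 spleens were removed, a rule taken from the wording of the study's methods. The study's own step removed smaller shares, so the filter used here is not that step, and settings without it are given as alternatives. Libraries were thinned to 71859 counts (isotypes to their lowest count, for mutation) as the mean of 10 seeded draws. Counts by gene and isotype shares used all filtered counts, where a count of 0 allows a share of up to 3 counts of the total. This limit covers counting error only. IGHV genes were tested with edgeR 4.0.16 (quasi-likelihood, no further scaling, R 4.3.3) and other measures by two-sided exact permutation over all splits of the mice, with Benjamini-Hochberg adjustment within each family and a threshold of 0.05. The within-mouse ratio used a pseudocount of 0.5. DESeq2 1.42.0, Python 3.11.15, NumPy 2.4.6, SciPy 1.17.1 and Matplotlib 3.10.9 were also used, and the tests were tested on simulated data. The labels number the mice as biological replicates of a group, and no batch is given for the spleens.

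IGHV genes named are the 10 most used, all past the threshold over all isotypes by clonotype or count, and 11 tied to a specificity, subset or the glands. Genes named for a result within a class, for the ratio between classes, by DESeq2 or for PBS-T mouse 6 lie outside this rule and were chosen after their values were seen. The members and lists were chosen with earlier results of these data known. Alternatives covered the filter, depth, weights, clonotype definition, tool, test, pairing and each mouse left out. Settings with clonotypes joined, found in 1 spleen or without IgM or IgD, TMM and DESeq2 within classes, the within-mouse ratio, charge by class and genes with a constant mismatch were added after the data were seen. Lacrimal gland libraries were not used here.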

Additional observations from a re-analysis of the deposited data

Results flagged for a closer look

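Of 153 groups of 5 to 10 spleens tested for a single value far from the rest (Dixon's test at 95%), 21 (13.7%) held one, where chance gives about 1 in 20. PBS-T mouse 6 accounted for 7 of them, with 61.1% IGHJ2, 14.5% IGHJ3 and 14.3% IGHJ4 of counts, a Pielou evenness of 0.597, and 40.0%, 45.7% and 54.7% of counts in its largest, 10 largest and 100 largest clonotypes. All 7 are values after the filter, which had removed most of this mouse's deposited counts. Its IGHV2-9-1/IGHJ2 clonotype of 40.0%, which 4 spleens held, is part of each of these values, and whether it was this mouse's own or carry-over was not tested. NOD-FMT mouse 2 accounted for 5, with a mean HCDR3 length of 10.98 residues, 1.63 mismatches in IGHD and 1.53 in IGHM, and unmutated shares of 65.9% in IGHD and 65.2% in IGHM. NC mouse 2 stood apart in IGHD with 1.42 mismatches and an unmutated share of 67.7%, and in IGHG2C with 3.29 mismatches. The largest clonotype of NOD-FMT mouse 8 held 8.85% at equal depth, and IGHE took 0.0569% of the counts of PBS-T mouse 8. Among shares within a class, NOD-FMT mouse 3 stood apart for IGHV1-59 in IgG (4.91%), NOD-FMT mouse 6 for IGHV14-3 in IgG (5.76%), PBS-T mouse 3 for IGHV14-3 in IgA (2.79%) and NC mouse 1 for IGHV1-59 in IgA (1.49%).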

How the results depend on the processing

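By clonotype, IGHV14-3 and IGHV1-59 kept their direction and their call in IgG and in IgA with each of the 19 mice left out. They also did under the alternatives run within classes, which covered the filter, depth, clonotype definition, tool and replicate block, but not weighting by counts. By share of the class counts at full depth, IGHV1-59 in IgG did not pass (exact permutation, adjusted p = 0.0992). Over all isotypes, 1 gene in place of 2 passed at full depth, with joined clonotypes and with the replicate block. By count, 2 genes passed without the filter, 4 with DESeq2 and 3 without a limit on low genes, against 0. In IgM or IgD, 2 passed when every sequence found in 2 or more mice was removed and 1 with DESeq2. IGHJ usage by count fell from 1 call to 0 under that stricter filter and by rank sum. The HCDR3 length difference turned to 0.00882 at full depth, neither value past the threshold. Residue composition gained 1 call (arginine) under the stricter filter, with at least 2 counts per clonotype, with clonotypes of 1 spleen and without the HCDR3 ends, and 2 (methionine, serine) by counts. The charge difference was 0.0237 without the filter, 0.0174 at full depth and 0.0596 by counts, none past the threshold (adjusted p 0.0504 to 0.275), and the hydropathy difference by counts was -0.0266 (adjusted p 0.132). Isotype shares gave 0 calls by clonotype. Mutation gave 0 calls by counts, by unique sequences and by rank sum, and the unmutated share 0 by counts. The cause of these changes was not tested.

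Groups share 9 replicate numbers, and same-numbered mice correlated from -0.433 to 0.491, over 0.1 in 3 of 9 pairs and best with their own number in 1. No pairing by number was evident in IGHV usage, but 9 correlations cannot settle whether the numbers stand for anything shared. With the replicate block, 1 gene passed over all isotypes, 4 in IgG, 8 in IgA, 0 by count, 0 isotype shares, 0 for mutation and 1 for the unmutated share. Without it, 1 isotype share, 1 isotype for mutation and 3 for the unmutated share passed.

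With 1 mouse left out, calls ranged from 1 to 3 for IGHV genes by clonotype, 0 to 3 by count, 0 to 1 in IgM or IgD, 4 to 8 in IgG (7 without NOD-FMT mouse 3 or PBS-T mouse 4, 8 without PBS-T mouse 2), 6 to 10 in IgA, 0 to 1 for families, 0 to 2 for IGHJ by count (2 without PBS-T mouse 6), 0 to 2 for residues (2 without PBS-T mouse 7), 0 to 1 for mutation and 1 to 5 for the unmutated share. The charge difference ranged from 0.0248 to 0.0375.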
